A study of Mus musculus with 30 samples.

Results

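The Bacteroidales outside the family S24-7 were a small and uneven part of the fecal bacteria of these mice, and they were described here family by family. Members were all amplicon sequence variants (ASVs, the sequence units of the deposited counts) of the filtered table that were assigned to the order Bacteroidales and to a family other than S24-7, and that held at least 1 count. They numbered 628 of 12980 ASVs, beside 1661 ASVs of S24-7, and held 34126 counts, which was 1.31% of all counts of the 30 mice. The bacteria of the feces were read through their 16S rRNA gene, in female C57BL/6 mice (C57BL/6J in the study's methods) of 6 weeks at the start, with 6 mice in each of 5 groups. Control mice received a normal diet and saline by gavage, and model mice received a high-fructose diet (HFru) and saline. The other 3 groups also received HFru, and by gavage a compound. The dose of salidroside was 50 mg/kg. Those of tyrosol (23 mg/kg) and of hydroxytyrosol (26 mg/kg) were set by molar conversion from it. The group given pioglitazone was not analysed here. HFru also held casein, cellulose and lard, and the make-up of the normal diet is not given in the sources used here, so the share of fructose itself in a difference between model and control cannot be told apart. The sources used here name no cage and no sequencing batch, and a shared cage and a group cannot be told apart.

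Bacteroidales are strictly anaerobic, Gram-negative rods of the large intestine. They live on plant polysaccharides and on the glycans of the mucus layer, which they take up with dedicated outer-membrane systems, and they release acetate, propionate and succinate. S24-7 (now Muribaculaceae) is usually the main family of the order in the mouse, while Bacteroidaceae, Prevotellaceae, Rikenellaceae and Odoribacteraceae share the same niche. Square brackets in a name such as [Odoribacteraceae] belong to the label in the tables.

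Depth ran from 41862 to 106609 counts per mouse in the filtered table, and a count of 0 in a mouse allowed a share of up to 3 counts of its total. Such limits cover counting error only, and shares do not tell how many bacteria there were. Between 31 and 9879 of the counts of a control mouse belonged to these Bacteroidales, against 63 to 1349 in model mice, and with the compounds 40 to 910 (salidroside), 73 to 2136 (tyrosol) and 351 to 2155 (hydroxytyrosol). Control mouse 6 stood apart, with 31 such counts, 0.374% of S24-7 and 56.7% of counts in the listed genera of obligate aerobes, such as Acinetobacter. These 15 genera, which are not typical residents of the anaerobic colon, held 24.5% ± 25.2 of the counts in control mice, 65.9% ± 16.6 in model mice, 38.2% ± 26.1 with salidroside, 49.1% ± 30.8 with tyrosol and 22.7% ± 24.9 with hydroxytyrosol (SD, n = 6 mice each). Their part in the results below was not tested. Results were therefore also computed with these genera taken out of the total. In all that follows a share is the percent of the filtered counts of a mouse.

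Of the 628 ASVs, 466 (74.2%) were found in 1 mouse only. The most diverse family was Bacteroidaceae, with 210 ASVs, all of the genus Bacteroides, which degrades many host and plant glycans. It held 33.7% of the member counts and was found in 30 of 30 mice. [Odoribacteraceae], a family with known butyrate producers, had 28 ASVs and 20.9% of the counts. Porphyromonadaceae, here nearly all Parabacteroides, had 53 ASVs and 12.8% of the counts. Rikenellaceae, a family that includes bile-tolerant species, had 106 ASVs and 12.7%. Prevotellaceae, degraders of plant fibre, had 20 ASVs and 5.79%, and [Paraprevotellaceae] had 8 ASVs and 3.76%. [Barnesiellaceae] held 6 ASVs and 30 counts in all. The remaining 197 ASVs carried no family name and appear as unidentified_Bacteroidales (116 ASVs) and unclassified_Bacteroidales (81 ASVs).

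The summed share of these families was 2.33% in the median control mouse (from 0.0371% to 13.7%) and 0.231% in the median model mouse (from 0.0646% to 1.54%). It was 0.973% with salidroside (from 0.0436% to 2.02%), 0.350% with tyrosol (from 0.0828% to 2.01%) and 0.708% with hydroxytyrosol (from 0.420% to 2.45%). The ranges of all 5 groups overlapped. S24-7 had a median of 16.1% in control mice and 0.190% in model mice. The proportions within the order were also set side by side, with no test. The families outside S24-7 made up 13.0% of all Bacteroidales counts in the median control mouse, 65.2% in the model, 64.1% with salidroside, 41.9% with tyrosol and 53.3% with hydroxytyrosol. Among control mice this proportion ran from 8.88% to 43.8%, and the lowest value in model mice was 39.6%, so of the control mice only mouse 1 reached the range of the model.

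**Figure D1:**
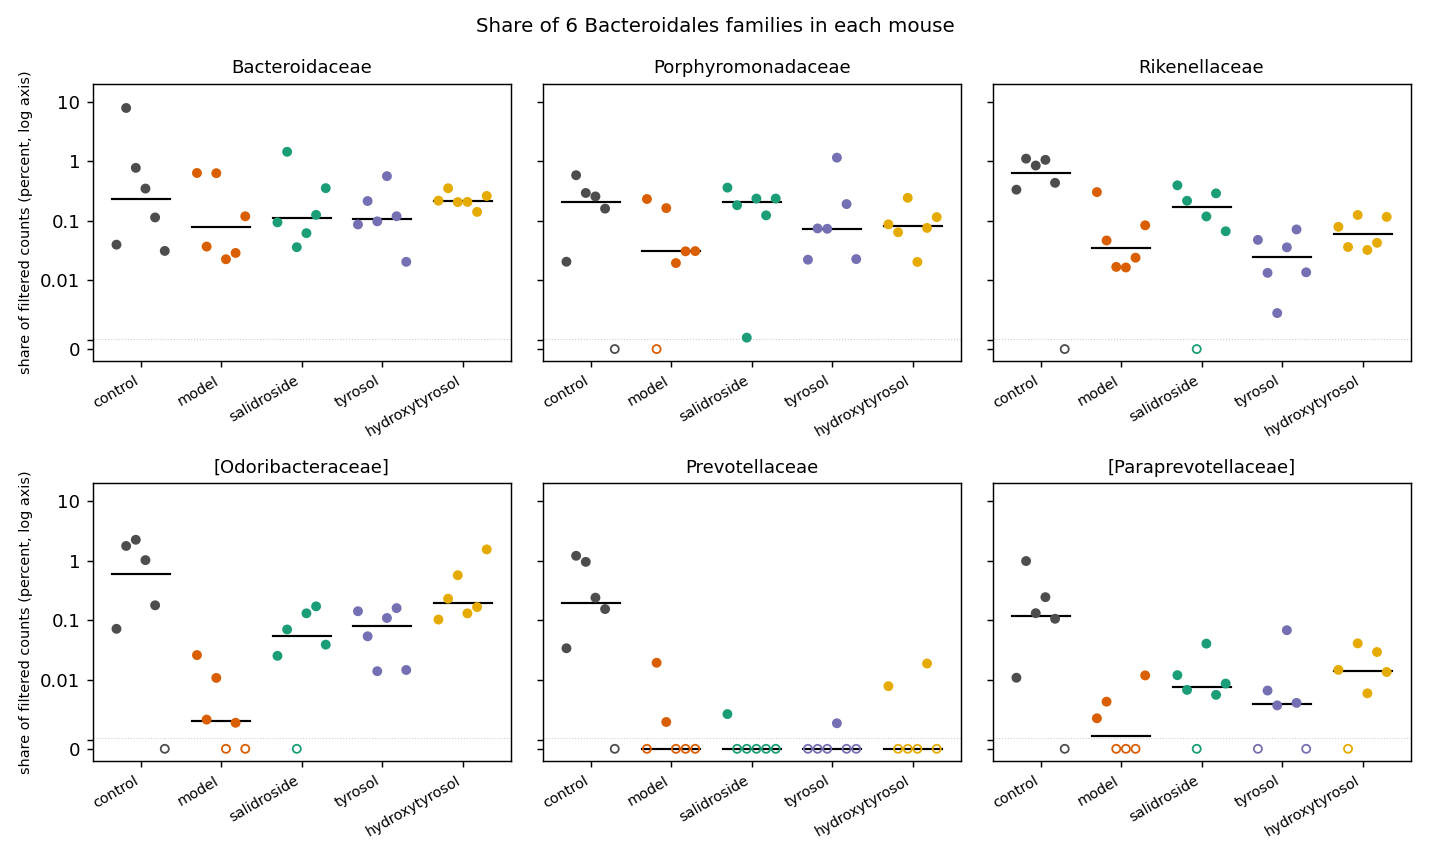
Share of 6 families in each mouse, in percent of the filtered counts on a log axis, with open circles at the bottom for mice with 0 counts and a black line at the median of the 6 mice of a group. Prevotellaceae were at or near 0 outside the control group, and [Odoribacteraceae] were lowest in model mice and present in all 6 hydroxytyrosol mice.

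Model mice were compared with control mice to see what the diet changed. Across the families of the whole table, 17.2% of those tested differed between these groups by edgeR's quasi-likelihood test at a Benjamini-Hochberg adjusted p under 0.05. Among the members 3 of 7 tested did, and these were lower in the model: [Odoribacteraceae], Prevotellaceae and [Paraprevotellaceae]. Each of them reached 10 counts in 4 or 5 control mice but in only 1 or 2 model mice, so they entered the test through the group in which they were high, and the count of 3 is not support for a difference of the families as a set. Bacteroidaceae, Porphyromonadaceae, Rikenellaceae and unidentified_Bacteroidales did not pass the test. Their fold changes on the log2 scale were -1.42 (95% interval -4.06 to 1.22), -0.20 (-3.15 to 2.75), -2.21 (-4.97 to 0.55) and 0.12 (-2.80 to 3.03). The intervals are wide, and only that of Rikenellaceae leaves little room for a rise in the model.

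[Odoribacteraceae] counted 53, 1285, 1897, 431, 133 and 0 in control mice 1 to 6, and 23, 2, 11, 0, 2 and 0 in model mice 1 to 6. Their mean share was 0.887% ± 0.965 in control mice and 0.00686% ± 0.0103 in model mice (SD, n = 6). Without model mouse 1 the model mean was 0.00299%. The counts of 5 control mice were above those of every model mouse, and control mouse 6 lay at 0 with the lowest. The log2 fold change of the model over the control was -6.23 (SE 1.73, edgeR adjusted p = 0.0137). The difference in mean share gave a two-sided exact permutation p of 0.0152, which is 0.0976 after adjustment over the 58 families tested.

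Prevotellaceae counted 25, 879, 807, 101, 115 and 0 in control mice and 0, 18, 2, 0, 0 and 0 in model mice. Nearly all of it was the genus Prevotella, and the ASV with most of the counts, ASV_53790, was found in 5 control mice, with 2 counts in a single model mouse. The log2 fold change of the family was -6.11 (SE 1.87, edgeR adjusted p = 0.0191), and the exact permutation test of shares gave 0.0152 (adjusted p = 0.0976). [Paraprevotellaceae], relatives of Prevotella that were almost all labelled [Prevotella], counted 8, 717, 111, 103, 79 and 0 in control mice and 2, 4, 0, 0, 0 and 12 in model mice. The log2 fold change was -5.05 (SE 1.82, edgeR adjusted p = 0.0451). This call was lost without any of control mice 1, 2 and 4 or model mice 1, 3, 4 and 5, with adjusted p-values up to 0.134.

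Rikenellaceae were also described by genus. The family as a whole had a share of 0.627% ± 0.440 in control mice and 0.0816% ± 0.111 in model mice (SD, n = 6), with a two-sided exact permutation p of 0.0195 (adjusted p = 0.103) and an edgeR adjusted p of 0.255. Without model mouse 1 the model mean was 0.0375%. The genus Rikenella, which gave the family its name, counted 200, 462, 430, 133, 199 and 0 in control mice. In model mice it had 6 counts in mouse 1 and 0 in the others. Its log2 fold change was -8.34 (SE 2.05, edgeR adjusted p = 0.00429). It reached 10 counts in 5 control mice and 0 model mice, and so passed the filter only through the group in which it was high. Alistipes, a bile-tolerant genus of the same family, had a share of 0.0534% ± 0.0475 in control mice and 0.0178% ± 0.0119 in model mice. AF12, a further genus of the family known from sequences, had 0.103% ± 0.168 and 0.0345% ± 0.0598. Neither passed the test, with log2 fold changes of -1.05 (95% interval -4.03 to 1.93) and -1.33 (-4.56 to 1.90). Sequences of the family without a known genus were at -4.40 (unclassified_Rikenellaceae, edgeR adjusted p = 0.0618) and -2.16 (unidentified_Rikenellaceae, adjusted p = 0.340). All 5 estimates were below 0, and the differences between genera were not tested.

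At the level of genera 4 of 11 members tested were lower in the model, namely Rikenella, Odoribacter, Prevotella and [Prevotella], where 17.5% of all genera tested were called in either direction. Each of the 4 reached 10 counts in 4 or 5 control mice and in at most 2 model mice, so they too entered the test through the control group, and their count is no support for a difference of the genera as a set. The call of [Prevotella] was lost without control mouse 2 (edgeR adjusted p = 0.0851), and the other 3 calls held whichever mouse was left out. Without control mouse 6, which stood apart, the log2 fold changes were -8.95 for Rikenella, -7.47 for Odoribacter, -7.27 for Prevotella and -6.41 for [Prevotella]. Without model mouse 1 they were -7.76 for Odoribacter, -7.09 for Prevotella and -5.81 for [Prevotella]. Rikenella was then at 0 in the model, where a fitted fold is no measure of size, and its call held (edgeR adjusted p = 0.000898). With the listed aerobic genera taken out of the total, the log2 fold changes of the families were -7.29 for [Odoribacteraceae] (edgeR adjusted p = 0.00287), -7.22 for Prevotellaceae (adjusted p = 0.00416) and -6.60 for [Paraprevotellaceae] (adjusted p = 0.00812). The log2 fold changes of the genera were smaller with that total, at -7.81 for Rikenella, -6.75 for Odoribacter, -6.53 for Prevotella and -5.57 for [Prevotella], and all of these calls held.

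Measured within the order Bacteroidales, the contrast took another form, since S24-7 was itself lower in the model (log2 fold change -4.90, SE 1.46, edgeR adjusted p = 0.0178). As a share of all Bacteroidales counts, [Odoribacteraceae] were 2.80 percentage points lower in the model (two-sided exact permutation p = 0.0260). Prevotellaceae were 0.713 points lower (exact p = 0.600) and [Paraprevotellaceae] 0.309 points lower (exact p = 0.578). Rikenellaceae turned to 7.02 points higher (exact p = 0.177).

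**Figure D2:**
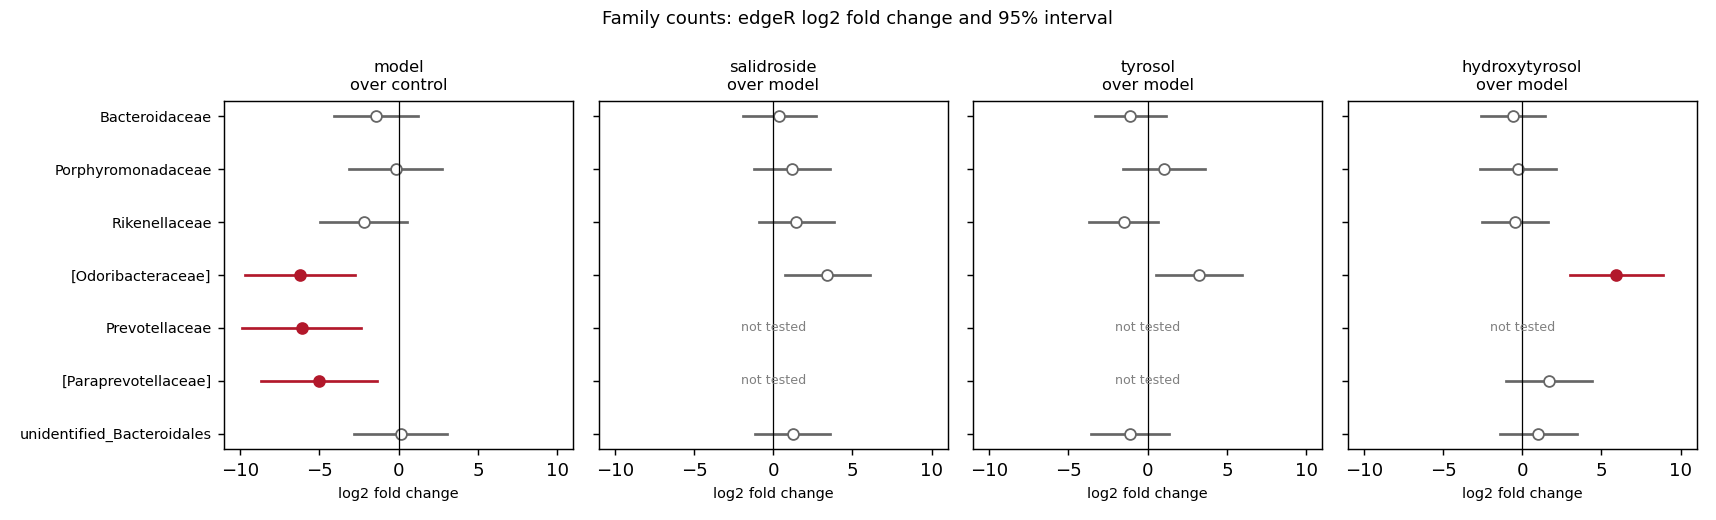
Log2 fold change of each family with its 95% interval from edgeR, for the model over the control and for each treated group over the model, with filled red symbols for an adjusted p under 0.05. [Odoribacteraceae] changed by -6.23 in the model and by 5.95 with hydroxytyrosol, and families without enough counts are marked as not tested.

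The treated groups were compared with the model to see what each compound changed under the same diet. Among the member families tested, [Odoribacteraceae] had the largest log2 fold change in all 3 comparisons, which share the same 6 model mice. It counted 19, 31, 0, 113, 153 and 36 in the 6 mice given salidroside. With tyrosol it counted 129, 57, 15, 117, 156 and 13, and with hydroxytyrosol 105, 167, 571, 110, 142 and 1372. Every hydroxytyrosol mouse had a higher share than every model mouse, whereas the salidroside and tyrosol groups overlapped with the model.

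With hydroxytyrosol the mean share of [Odoribacteraceae] was 0.461% ± 0.565, against 0.00686% ± 0.0103 in the model (SD, n = 6). The log2 fold change was 5.95 (SE 1.40, edgeR adjusted p = 0.0117), and the two-sided exact permutation p was 0.0022, the smallest that 6 against 6 mice can give (adjusted p = 0.0426). It reached 10 counts in 6 hydroxytyrosol mice and 2 model mice, and so entered these tests through the group in which it was high. This was 1 of 6 member families tested, where 11.9% of all families tested were called. Without hydroxytyrosol mouse 6 the difference in mean share from the model was 0.235 percentage points in place of 0.455, and the log2 fold change was 4.62 (edgeR adjusted p = 0.0589), so the call rests in part on this mouse. With the aerobic genera out of the total it was 5.83 (adjusted p = 0.0146). As a share of all Bacteroidales counts, the family was 18.2 percentage points higher than in the model (exact permutation p = 0.0022).

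With salidroside and with tyrosol 0 of 5 member families tested passed edgeR's test against the model, where 13.2% and 3.33% of all families tested did. At an unadjusted p under 0.05 there was 1 family in each comparison, and it was [Odoribacteraceae]. Its share was 0.0733% ± 0.0665 with salidroside (log2 fold change 3.40, 95% interval 0.71 to 6.08, edgeR adjusted p = 0.0655) and 0.0828% ± 0.0643 with tyrosol (log2 fold change 3.25, 0.54 to 5.96, edgeR adjusted p = 0.107). DESeq2 called this family in both comparisons, and limma on centred log-ratios called it with tyrosol only. The exact permutation test of shares gave 0.0281 with salidroside (adjusted p = 0.249) and 0.0087 with tyrosol (adjusted p = 0.0866).

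Both genera of the family were counted separately. Odoribacter, which includes butyrate-producing species, had a share of 0.411% ± 0.546 with hydroxytyrosol and 0.00553% ± 0.00742 in the model (SD, n = 6; log2 fold change 6.01, SE 1.42, edgeR adjusted p = 0.0242). Like the family, it reached 10 counts in 6 and 2 mice of these groups. This call was lost in 6 of 12 leave-outs, namely without model mouse 2, 4, 5 or 6 or hydroxytyrosol mouse 1 or 6 (adjusted p up to 0.168). Butyricimonas, also a butyrate producer, was at 0 in all 6 control mice. It counted 7 in model mouse 1 and 0 in the other model mice, and 19, 47, 142, 6, 6 and 55 in hydroxytyrosol mice. Its log2 fold change with hydroxytyrosol over the model was 5.12 (SE 1.43, edgeR adjusted p = 0.0484), a call that was lost under 7 of 9 alternatives, with adjusted p-values up to 0.0895, and without any of model mice 2 to 6, with values up to 0.104. It reached 10 counts in 4 hydroxytyrosol mice and 0 model mice, and so passed the filter through the group in which it was high. Without model mouse 1 Butyricimonas was at 0 in the model, so the printed fold rests on that mouse. A fitted fold is then no measure of size, and the call held (edgeR adjusted p = 0.0217). Salidroside mice 2 and 6 held 14 and 7 counts, tyrosol mice 1 and 4 held 11 and 14, and the rest of these groups held 0. Against control mice, its share with hydroxytyrosol was at least 11.4-fold higher (edgeR adjusted p = 0.00231), taking a floor of 3 counts per control mouse, and at least 7.25-fold higher without the highest mouse. With 4 hydroxytyrosol and 0 control mice at 10 counts, it entered this test too only through hydroxytyrosol mice.

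These were the 2 of 9 member genera tested that differed between the hydroxytyrosol group and the model, where 4.95% of all genera tested were called. With salidroside and tyrosol 0 of 7 were called by edgeR, where 4.12% and 1.94% of all genera tested were. At an unadjusted p under 0.05 there were 1 genus with salidroside and 2 with tyrosol, and DESeq2 called 1 in each. The glycan degraders Bacteroides and Parabacteroides showed no difference that passed the test in any of the 3 comparisons. For Bacteroidaceae the log2 fold changes were 0.39 (95% interval -1.91 to 2.68) with salidroside, -1.09 (-3.35 to 1.18) with tyrosol and -0.60 (-2.62 to 1.43) with hydroxytyrosol. For Porphyromonadaceae they were 1.21 (-1.19 to 3.61), 1.03 (-1.58 to 3.64) and -0.26 (-2.66 to 2.14).

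The mice given hydroxytyrosol lay closest together in Bacteroidaceae. Their lowest, median and highest shares were 0.141%, 0.212% and 0.350% with hydroxytyrosol. They were 0.0311%, 0.230% and 7.80% in the control and 0.0225%, 0.0777% and 0.633% in the model. With salidroside they were 0.0359%, 0.110% and 1.43%, and with tyrosol 0.0204%, 0.108% and 0.560%. Medians thus lay within a 3-fold range, and single mice ran far above them in the other groups. Parabacteroides were found in all but 2 of the 30 mice, with a highest share of 1.14% in tyrosol mouse 4.

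Prevotellaceae were at or near 0 with every compound. Against 1927 counts in the control, the family had 20 in the model, 2 with salidroside, 2 with tyrosol and 24 with hydroxytyrosol, so it could not be tested against the model. Per count sequenced, the control total was 1071 times that of salidroside mice (95% counting interval 296 to 8849) and 1333 times that of tyrosol mice (369 to 11018). The 2 counts of each treated group came from 1 mouse, and control mouse 2 held 879 of the control counts. The family reached 10 counts in 5 control mice and in 0 mice of either treated group. It was thus tested only through the control group, and the edgeR adjusted p-values of 0.0016 and 0.000609 are given with that limit. With hydroxytyrosol the log2 fold change relative to control was -5.87 (SE 1.80, edgeR adjusted p = 0.0243, with 1 hydroxytyrosol mouse and 5 control mice at 10 counts), a call lost without control mouse 3 or hydroxytyrosol mouse 4 (adjusted p up to 0.0656).

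Rikenella had 2 counts with salidroside, 0 with tyrosol and 0 with hydroxytyrosol, against 1424 in the control. Its share was at least 110-fold lower with tyrosol and at least 97.3-fold lower with hydroxytyrosol than in control mice (edgeR adjusted p = 0.000726 and 0.00231), with the floor of 3 counts per mouse. Here too 5 control mice and 0 treated mice reached 10 counts, so the genus entered these tests through the control group alone. The unclassified_Rikenellaceae were also lower than in control mice with salidroside (edgeR adjusted p = 0.0370) and with tyrosol (adjusted p = 0.00943), and reached 10 counts in 4 control mice and 0 mice of these groups. AF12 did not pass the test against control mice with any compound. Alistipes had a share of 0.0570% ± 0.0481 with salidroside and 0.0332% ± 0.0241 with hydroxytyrosol, but 12 counts in all with tyrosol, where it was lower than in control mice (log2 fold change -4.54, SE 1.43, edgeR adjusted p = 0.0158). It reached 10 counts in 5 control mice and 0 tyrosol mice, and was tested through the control group alone.

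Relative to control mice, 1 of 8 member families tested differed with salidroside, 2 of 8 with tyrosol and 1 of 7 with hydroxytyrosol, all of them lower, where 15.1%, 26.3% and 25.0% of all families tested were called. Prevotellaceae were among them in each comparison, and Rikenellaceae joined with tyrosol (log2 fold change -3.81, SE 1.27, edgeR adjusted p = 0.0342). The latter call was lost without control mouse 3 or tyrosol mouse 1, 2 or 3 (adjusted p up to 0.0561). These 3 comparisons share the 6 control mice. With edgeR the members' shares of calls were thus no higher than those of all families. DESeq2 called 3 of 8, 4 of 8 and 3 of 7 members, beside 18 of 53, 28 of 57 and 20 of 52 of all families, which is slightly higher. At genus level 4 of 12, 6 of 12 and 3 of 12 member genera were called, beside 30.2%, 44.1% and 29.2% of all genera. [Odoribacteraceae] did not pass in any of these comparisons, with log2 fold changes of -2.86 (95% interval -5.62 to -0.10) for salidroside, -2.84 (-5.52 to -0.16) for tyrosol and -0.58 (-3.11 to 1.95) for hydroxytyrosol. Its genus Odoribacter was called lower with tyrosol (log2 fold change -3.48, edgeR adjusted p = 0.0474), a call lost without control mouse 3 or tyrosol mouse 2, 3 or 6 (adjusted p up to 0.1004). This call was also lost with the listed aerobic genera out of the total (edgeR adjusted p = 0.0505).

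A Kruskal-Wallis test across the 5 groups with 100000 permutations called 17.8% of the 73 families tested. Of the members, [Odoribacteraceae] (adjusted p = 0.0136) and Prevotellaceae (adjusted p = 0.0442) passed this permutation test. Rikenellaceae (adjusted p = 0.104), [Paraprevotellaceae] (adjusted p = 0.117) and the other families tested did not.

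The compounds are close relatives. Salidroside is the glucoside of tyrosol, and hydroxytyrosol carries an additional phenolic hydroxyl group on the ring of tyrosol. Their groups were compared in 3 pairs at molar-matched doses. In each pair 0 member families passed edgeR's test, where 2.04% (salidroside and tyrosol), 1.82% (hydroxytyrosol and tyrosol) and 0.0% (salidroside and hydroxytyrosol) of all families tested did. At an unadjusted p under 0.05 there were 2, 2 and 1 member families, and DESeq2 called 1, 2 and 0. With p-values adjusted over all 154 tests of the 3 pairs together, 0 of 17 tests of members passed, where 1.30% of all did.

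**Figure D3:**
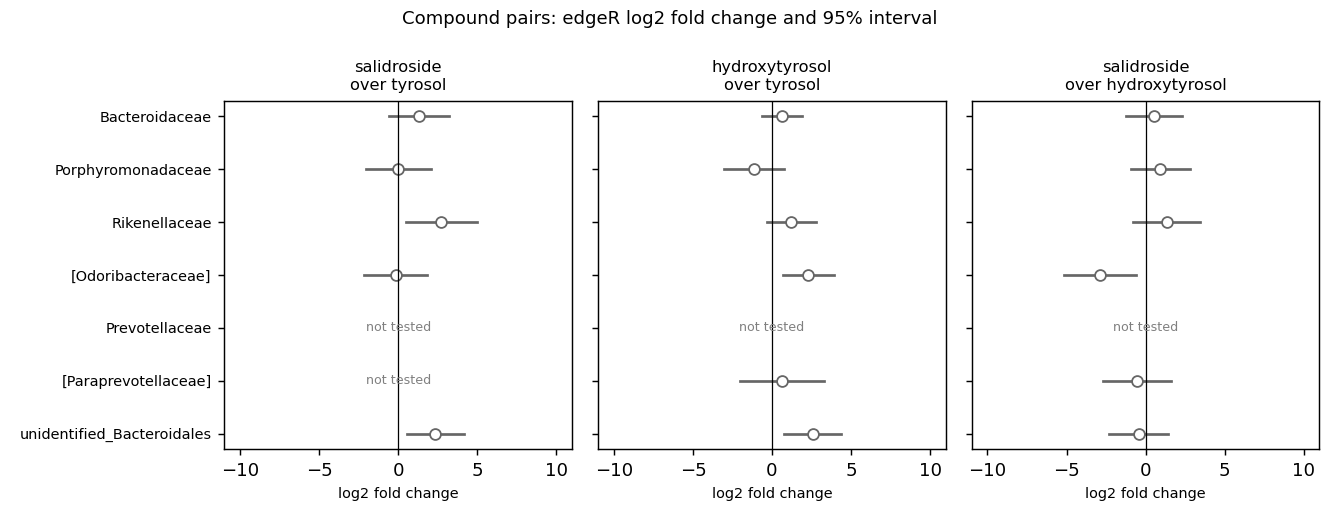
Log2 fold change of each family with its 95% interval from edgeR for the 3 pairs of compounds, on the same scale for each pair. No symbol is filled, as 0 member families reached an adjusted p under 0.05, and the intervals of [Odoribacteraceae] with hydroxytyrosol exclude 0 in both pairs.

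The intervals of 5 of these 17 tests excluded 0, in [Odoribacteraceae], Rikenellaceae and unidentified_Bacteroidales. These are the same 5 tests that had an unadjusted p under 0.05, as interval and p come from 1 test. None of the 5 passed after adjustment, and the values below are estimates. For hydroxytyrosol over tyrosol the log2 fold change was 2.31 in [Odoribacteraceae] (95% interval 0.71 to 3.90, edgeR p adjusted over the pairs = 0.141). In unidentified_Bacteroidales it was 2.57 (0.77 to 4.36, adjusted p = 0.141). Salidroside was below hydroxytyrosol in [Odoribacteraceae], with a log2 fold change of -2.87 (-5.14 to -0.60, adjusted p = 0.177). Against tyrosol, salidroside was higher in Rikenellaceae by 2.73 (0.48 to 4.98, adjusted p = 0.202) and in unidentified_Bacteroidales by 2.35 (0.53 to 4.16, adjusted p = 0.164). Salidroside and tyrosol did not differ detectably in [Odoribacteraceae] (-0.17, interval -2.16 to 1.81), which still allows a difference of several fold in either direction. None of these values shows that the compounds act alike.

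The ASVs show which sequences stood behind a family name in each group. The 10 ASVs with the highest mean share over the 30 mice held 52.2% of the member counts, and 7 more were named because they changed most in a comparison, which made 17. Odoribacter in control mice was mostly ASV_19634, with 42, 1146, 1632, 281, 86 and 0 counts in control mice 1 to 6. It had 9 counts in model mouse 1, 0 in the other model mice and 0 in the 18 treated mice. The Odoribacter variant with the highest mean share in each treated group was ASV_2594, which was not found in the 6 control mice or the 6 model mice and was found in 17 of 18 treated mice, all but salidroside mouse 3.

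**Figure D4:**
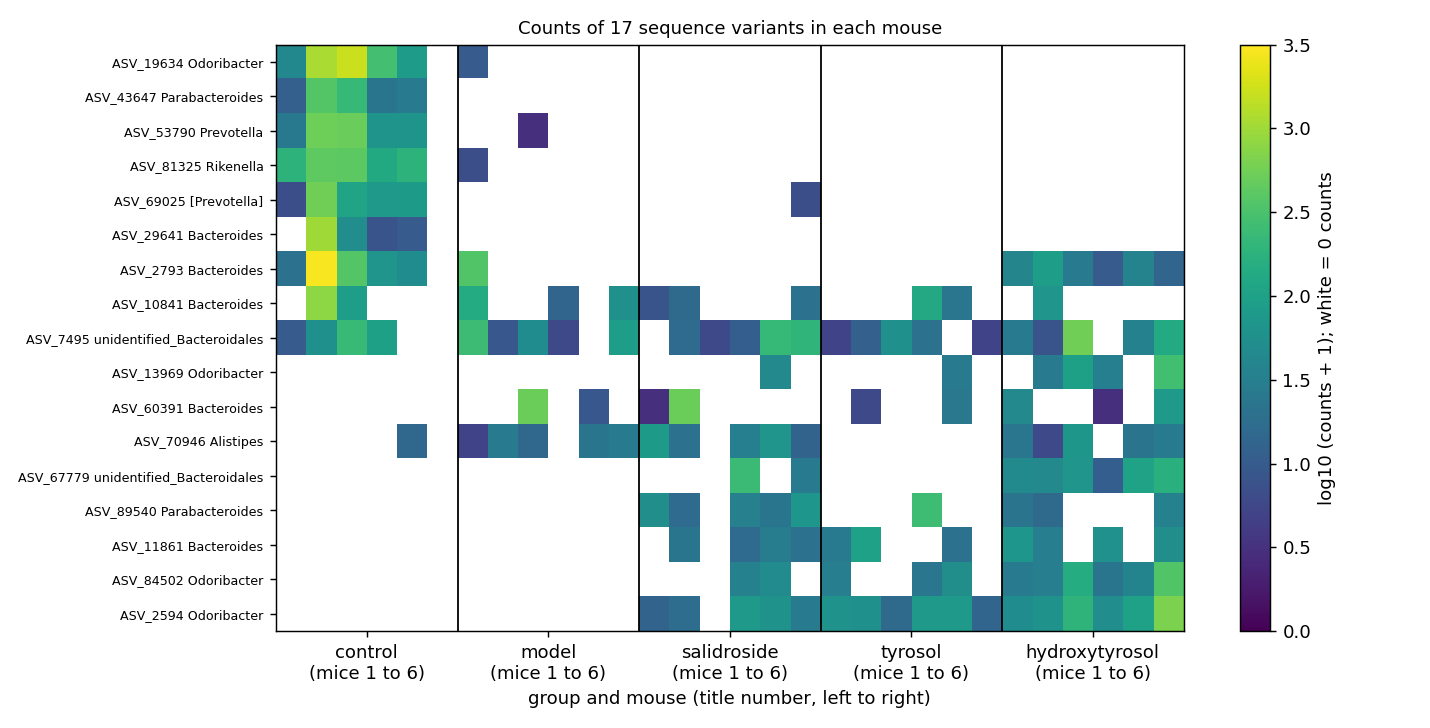
Counts of 17 named ASVs in each of the 30 mice, as log10 of the count plus 1, with white for 0 counts and black lines between groups. ASV_43647 near the top was found in 5 control mice alone, ASV_2594 at the bottom in 17 of 18 treated mice alone, and ASV_7495 between them in all 5 groups.

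ASV_2594 counted 12, 17, 0, 77, 61 and 26 with salidroside, 61, 57, 15, 78, 75 and 13 with tyrosol, and 49, 59, 186, 51, 99 and 634 with hydroxytyrosol. As it was at 0 in the model, it passed the filter only through the treated mice, and the p-values below are no independent support for the difference. With a floor of 3 counts per model mouse, its share was at least 13.0-fold higher than in the model with salidroside (edgeR adjusted p = 0.0279), at least 16.2-fold with tyrosol (adjusted p = 0.0145) and at least 65.5-fold with hydroxytyrosol (adjusted p = 0.00345). Without hydroxytyrosol mouse 6 the last bound was 32.0-fold. The call with salidroside was lost without any of model mice 2 to 5 or salidroside mouse 6 (adjusted p up to 0.0792). A further Odoribacter variant, ASV_84502, was also found in 0 control and 0 model mice, and in 2 salidroside, 3 tyrosol and 6 hydroxytyrosol mice. ASV_13969 was found in 1, 1 and 4 of them.

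Counted over the family, 3.69% of the [Odoribacteraceae] counts of salidroside mice, 5.95% of those of tyrosol mice and 2.55% of those of hydroxytyrosol mice were in ASVs that also occurred in control mice. In the model it was 76.3%, of only 38 counts. For S24-7 the same measure was 83.9% in the model and from 90.4% to 93.2% in the treated groups. Control mice held 1506 ASVs of S24-7 but 14 of [Odoribacteraceae], and the measure depends on these numbers. Over all members it was 52.7% in the model, 35.1% with salidroside, 47.7% with tyrosol and 33.5% with hydroxytyrosol. These values pool the counts of a group, and in the median mouse they were 49.0%, 34.9%, 34.6% and 34.5%. The share of [Odoribacteraceae] was thus higher with hydroxytyrosol than in the model, but nearly all of it was in other ASVs than those of control mice. With hydroxytyrosol the same pooled measure was 76.1% for Porphyromonadaceae, 60.7% for unidentified_Bacteroidales, 58.5% for Rikenellaceae and 45.4% for Bacteroidaceae. In the median mouse these were 71.0%, 29.6%, 63.0% and 48.3%. Hydroxytyrosol mouse 3 held 637 of the 1257 unidentified_Bacteroidales counts of its group, 86.7% of them in ASVs of control mice. The pooled measure with hydroxytyrosol was 0.0% for [Paraprevotellaceae] (98 counts), [Barnesiellaceae] (27 counts), Prevotellaceae (24 counts) and unclassified_Bacteroidales (21 counts). For Bacteroidaceae the pooled measure was 17.5% with salidroside and 51.9% with tyrosol, but 23.4% and 18.9% in the median mouse. Tyrosol mouse 4 held 596 of the 1136 Bacteroidaceae counts of its group, and 86.4% of these were in ASVs of control mice. Differences between families in this measure were not tested. The sources name no cage, and the part of shared cages in this pattern was not tested.

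Some variants of other families were also divided between control and treated mice. ASV_81325 (Rikenella) counted 182, 430, 414, 131, 185 and 0 in control mice, 6 in model mouse 1, and 0 in all other mice on HFru. ASV_43647 (Parabacteroides) was found in 5 control mice and in 0 of the other 24 mice, and its share was at least 47.0-fold lower in the model than in the control, or at least 23.5-fold without control mouse 2. It entered that test through the control group alone and was named for its fold change, so the bound is a description. ASV_69025 ([Prevotella]) was found in 5 control mice, with 6 counts in salidroside mouse 6 besides. In contrast, ASV_89540, labelled Parabacteroides distasonis, was found in 0 control and 0 model mice but in 5 salidroside mice, 1 tyrosol mouse and 3 hydroxytyrosol mice. ASV_11861 (Bacteroides) was found in 4, 3 and 4 treated mice of these groups, and in 0 control and 0 model mice. ASV_7495, with no family name, was the most widespread of the 17, in 24 of 30 mice.

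Some variants were found with 1 compound and not with another. Where such a variant was at 0 in 1 of the groups compared, it entered the test through the other group alone, and its p-value comes with the same limit. ASV_2793, labelled Bacteroides acidifaciens, a mucin-degrading species of the mouse gut, had the highest mean share of all members, a rank that rests on control mouse 2. It counted 19, 2915, 361, 65, 50 and 0 in control mice and 350 in model mouse 1, with 0 in the other model mice. It was found in 0 salidroside and 0 tyrosol mice but in all 6 hydroxytyrosol mice, with 38, 89, 27, 9, 36 and 13 counts. Its share with hydroxytyrosol was at least 14.0-fold higher than with tyrosol (edgeR p adjusted over the pairs = 0.0227) and at least 10.6-fold higher than with salidroside (adjusted p = 0.0227). Without hydroxytyrosol mouse 2 these bounds were 8.70-fold and 6.56-fold. It did not differ detectably between hydroxytyrosol and the model (edgeR adjusted p = 0.762).

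ASV_70946, labelled Alistipes finegoldii, had 0 counts in all 6 tyrosol mice and was found in 5 model, 5 salidroside and 5 hydroxytyrosol mice. Among control mice it was found in 1 only, with 14 counts in mouse 5, so its near absence was not particular to tyrosol. Its share with tyrosol was at least 5.27-fold lower than in the model (edgeR adjusted p = 0.0248), a call lost without tyrosol mouse 4 or 5 (adjusted p up to 0.0549). It was at least 8.49-fold lower than with hydroxytyrosol and at least 15.1-fold lower than with salidroside (p adjusted over the pairs = 0.0227 for both). Without hydroxytyrosol mouse 3 the first of these bounds was 5.50-fold. Adjusted within its own comparison, the difference between salidroside and tyrosol did not pass (edgeR adjusted p = 0.0615). ASV_67779, with no family name, counted 45, 44, 65, 10, 102 and 164 in hydroxytyrosol mice and 0 in tyrosol mice, at least 26.7-fold apart. Both ASVs were named for a large fold change among called ASVs, so their differences are a description.

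Calls were also counted over all member ASVs. In the model against the control 9 of 17 member ASVs tested were lower, where 30.4% of all ASVs tested were called. Against the model 3 of 11 were called with salidroside (4.19% of all), 2 of 8 with tyrosol (8.49%) and 6 of 17 with hydroxytyrosol (33.1%). Between compounds 4 of 18 were called for hydroxytyrosol and tyrosol (27.0% of all) and 1 of 18 for salidroside and hydroxytyrosol (10.7%). For salidroside and tyrosol edgeR called 0 of 15 (0.0% of all), with 1 at an unadjusted p under 0.05, and DESeq2 and limma called 1 each. Against the control 15 of 21 were called with salidroside (36.9% of all), 12 of 19 with tyrosol (46.8%) and 19 of 27 with hydroxytyrosol (60.5%). Over the 3 pairs adjusted together 7 of 51 tests of member ASVs passed, where 13.3% of all did. Most of these ASVs were at 0 in 1 of the groups compared, and such an ASV passed the filter through the other group alone. Counts of calls over them are therefore no measure of how members as a set behaved.

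**Figure D5:**
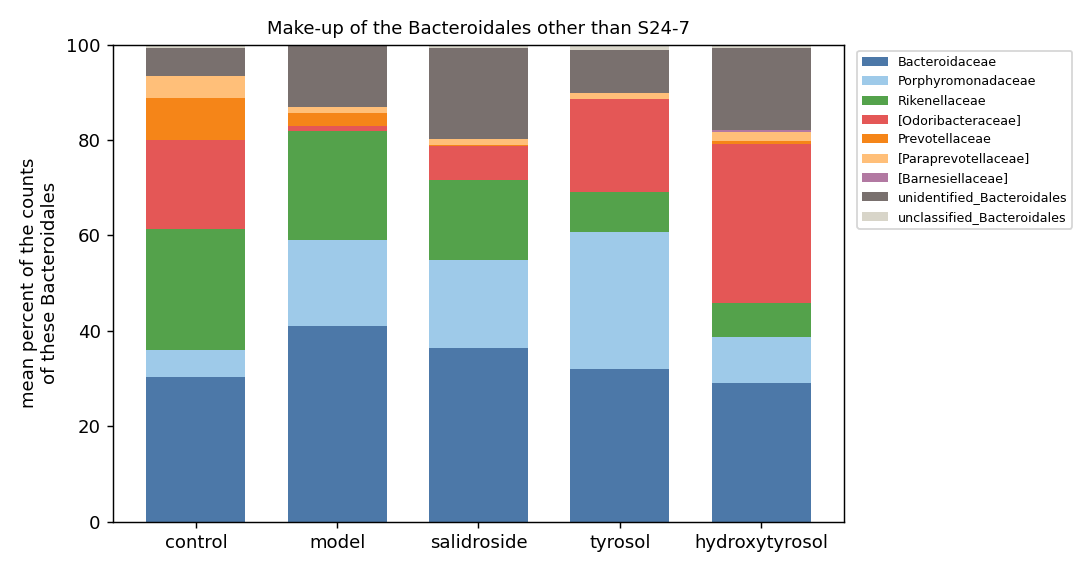
Mean percent of the member counts that fell in each family, by group (6 mice each, each mouse weighted equally). [Odoribacteraceae] held 18.6% in control mice, 1.2% in model mice and 33.3% in hydroxytyrosol mice, and Prevotellaceae 8.8% in control mice.

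The make-up of the member counts brings these results together. Weighting mice equally, Bacteroidaceae were the largest family in control mice (30.3% ± 32.3 of the member counts), in the model (40.9% ± 15.4), with salidroside (36.4% ± 33.1) and with tyrosol (32.1% ± 12.1). The rank in control mice rests on mouse 6, where 26 of only 31 member counts were Bacteroidaceae. In control mice 1, 3, 4 and 5 Rikenellaceae held more counts than Bacteroidaceae. With hydroxytyrosol [Odoribacteraceae] came first (33.3% ± 15.8), ahead of Bacteroidaceae (29.1% ± 17.0), and these values differed by less than their spread between mice. Porphyromonadaceae held 5.7% ± 4.6 in control mice and from 9.5% to 28.6% in the other groups. Rikenellaceae held 25.4% ± 22.6 in control mice, 22.9% ± 11.9 in the model and 7.3% ± 3.1 with hydroxytyrosol (SD, n = 6). These proportions were not tested.

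The number of member ASVs per mouse was counted at equal depth, with no test. At the rarefied depth of 39768 counts per mouse, the median control mouse held 55.5 member ASVs (from 4 to 152) and the median model mouse 16.5 (from 5 to 42). The medians were 33.0 with salidroside, 22.0 with tyrosol and 36.5 with hydroxytyrosol. The ranges of all groups overlapped, and the lowest of the 30 mice was a control mouse.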

How the data were processed

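The authors merged reads, filtered them for quality, removed chimeric sequences and deposited raw counts per sequence with a taxon for each. The deposited log of reads also lists a denoising step, so the name ASV is used. Which taxonomy release the labels come from is not given in the sources used here. The filtered counts (singletons removed by the authors) were used without further change, and the authors' rarefied and unfiltered counts served as alternatives. Groups and mouse numbers follow the sample titles (3 groups are numbered differently in the tables). In 75 pairs of mice within a group, 0 had identical counts.

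Counts per family, genus and ASV were compared in 10 pairs of groups with edgeR 4.0.16 in R 4.3.3 (quasi-likelihood test, TMM normalization, a filter of 10 or more counts in 4 or more of the 12 mice, Benjamini-Hochberg adjustment over all features). Intervals are 95%. Shares were compared by two-sided exact permutation tests. For groups at 0, folds were bounded with 3 counts per mouse. With p-values between compounds, adjustment was also made over the 3 pairs, which was decided with results in view.

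Alternatives were DESeq2 1.42.0, TMM left out, TMM with singleton pairing, centred log-ratios (0.5 added) with limma 3.58.1, other filters and tables, all 30 mice in one model, other totals, the replicate number as a block, and leaving out each mouse. The procedure was tested on simulated data. The mice of a group are taken as separate animals. Named were all member families and genera, the 10 ASVs with the highest mean share, and in each comparison up to 3 called ASVs with the largest fold change. The members and lists were chosen with earlier results of these data known.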

Additional observations from a re-analysis of the deposited data

Results flagged for a closer look

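Of 45 groups of 6 mice checked (9 family labels in 5 groups), 17 held a mouse far from the others, measured as the gap to its nearest neighbour relative to the range of the group. The critical value used lets chance flag about 5% of groups of normal values, and shares with many zeros are not normal. The Bacteroidaceae shares were 7.80% in control mouse 2, 1.43% in salidroside mouse 2 and 0.560% in tyrosol mouse 4. Porphyromonadaceae held 1.14% in tyrosol mouse 4, and [Odoribacteraceae] held 1.56% in hydroxytyrosol mouse 6. Prevotellaceae held 0.0195% in model mouse 2, 0.00268% in salidroside mouse 1 and 0.00188% in tyrosol mouse 4, where most mice of the group were at 0. Model mouse 1 held 0.302% of Rikenellaceae, 0.335% of unidentified_Bacteroidales and 0.00798% of unclassified_Bacteroidales. [Paraprevotellaceae] held 0.993% in control mouse 2, 0.0120% in model mouse 6, 0.0408% in salidroside mouse 4 and 0.0686% in tyrosol mouse 4. [Barnesiellaceae] held 0.00358% in control mouse 3, and unclassified_Bacteroidales held 0.101% in control mouse 2. Control mouse 2, model mouse 1 and tyrosol mouse 4 were each named for several labels. Without model mouse 1 the mean share of Rikenellaceae in the model was 0.0375% in place of 0.0816%.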

How the results depend on the processing

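Shares are relative, and the median log2 fold change over all families in the model against the control was 0.60 with TMM, -0.15 without TMM, -0.71 with the listed aerobic genera out of the total, 1.93 with no filter and 1.35 with the replicate block. In the model against the control, 3 member families were called, against 1 with the replicate block, and leaving out each mouse gave 2 to 3. With salidroside against the model the count of 0 became 1 under TMM with singleton pairing and 1 under DESeq2, and leaving out each mouse gave 0 to 1, with 1 without model mouse 1 or salidroside mouse 3. With tyrosol against the model 0 became 1 under DESeq2 and 1 with centred log-ratios. With hydroxytyrosol against the model leaving out each mouse gave 0 to 1, with 0 without hydroxytyrosol mouse 6. With salidroside against the control 1 became 2 without TMM, 3 under DESeq2, 2 with a minimum of 50 counts, 2 with all 30 mice in one model and 3 in the rarefied table, with 1 to 3 when a mouse was left out. With tyrosol against the control 2 became 5 under TMM with singleton pairing, 4 under DESeq2, 5 with no filter, 4 with a minimum of 50 counts and 5 with all 30 mice, with 1 to 6 when a mouse was left out. With hydroxytyrosol against the control 1 became 3 under DESeq2, 2 in the rarefied table and 3 without the aerobic genera, with 0 to 3 when a mouse was left out. Between compounds 0 became 1 for salidroside and tyrosol and 2 for hydroxytyrosol and tyrosol under DESeq2, and the latter ran from 0 to 1 when a mouse was left out, with 1 without tyrosol mouse 5. Member ASVs called in the model against the control were 9, against 4 with a minimum of 50 counts, 14 with all 30 mice and 0 with the replicate block, and 5 to 10 when a mouse was left out (5 without control mouse 2, 3 or 4). With hydroxytyrosol against the model they were 6, against 1 with a minimum of 50 counts and 12 with all 30 mice, and 3 to 8 when a mouse was left out (3 without hydroxytyrosol mouse 2, 4 or 6). The cause of these changes was not tested. The difference in mean share of Rikenellaceae between model and control reversed to 7.02 percentage points as a share of all Bacteroidales counts. For single taxa only results that passed at first were followed (edgeR adjusted p, or unadjusted exact permutation p of a share, under 0.05). A gained call could therefore not appear. Of these values 1703 kept their direction and their side of the threshold, 244 kept the direction but no longer passed, and 1 reversed. Each mouse left out gave a value of its own. The 1703 include percents of counts in ASVs of control mice, which have no threshold and moved little. Equal replicate numbers were not taken to pair these mice. At most 3 of 6 pairs in a comparison deviated together (correlation over 0.1), and single pairs reached 0.478. No chance level was set for these correlations. The check used the title numbers, which differ from those of the deposited counts in some groups, so it cannot exclude a pairing. No run without a filter was made for ASVs.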
